A study of Mus musculus with 7 samples.

Results

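The genes described here belong by name to families of spliceosome proteins and of factors that regulate splicing, as measured in mouse bone marrow. They were chosen by symbol alone: SR proteins (Srsf), hnRNP proteins (Hnrnp), the Sm and other snRNP proteins named Snrp, the SF3a and SF3b proteins, Sf1, the U2af proteins, the Prpf factors, the Luc7-like proteins and the numbered Rbm proteins. Probe sets annotated with exactly 1 such symbol numbered 232 of 16309, and they gave 91 genes of 8378, each with 1 value per array, the mean of its probe sets. A single probe set stood for 33 of the 91 genes, and the gene with the most, Rbm39, had 12. Some numbered Rbm proteins, such as Rbm7 and Rbm47 below, have roles other than splicing. The term splicing genes stands here for all 91 genes of the list. All 91 genes had passed the filter stated in the file headers, which kept probe sets called Present or Marginal on 100% of arrays. The values were centred logarithms, taken as base 2, so a value of 0 was the median of a probe set over the 7 arrays, and no level of one gene can be set against that of another.

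Splicing removes introns from pre-mRNA. The U1 snRNP binds the 5' splice site, Sf1 and the U2af proteins mark the branch point and the 3' splice site, and the U2 snRNP with its SF3a and SF3b complexes then takes the branch point. The U4/U6.U5 tri-snRNP joins, and Prpf proteins help to form the catalytic spliceosome, while SR proteins mostly promote and hnRNP proteins mostly restrain the use of exons. Several of these genes, such as SF3B1, SRSF2 and U2AF1, are recurrently mutated in human myelodysplastic syndrome (MDS), a disorder of ineffective blood formation.

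The series concerns genes altered in MDS. All 7 arrays came from recipients of transplanted marrow, in 4 groups. These differed in the transgene carried by the transplanted cells and, within EZH2-Mt marrow, in the sorted fraction. Whole marrow of recipients of mock control cells gave 3 arrays, and whole marrow of recipients of cells expressing ABCG2, a drug efflux pump, gave 2. Marrow labelled as expressing EZH2-Mt, a form of the Polycomb histone methyltransferase EZH2, came from mice described as MDS-like. It was sorted on green fluorescent protein into a GFP-positive and a GFP-negative fraction, with 1 array each, and the labels call both a control. The mutation in EZH2-Mt, the vector and promoter, the strain, sex and age of the mice and the share of transgene-carrying cells in unsorted marrow were absent from the labels. The marrow of a transplanted mouse can also hold cells of the host. Since no label numbers the mice, a p-value here reflects array-to-array spread, which may be technical, and the fractions may or may not stem from 1 mouse.

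Some facts of the arrays touch every result. The SD of all genes was 1.12 and 1.21 log2 on the ABCG2 arrays, against 0.30 to 0.39 on mock, 0.38 on GFP-negative and 0.44 on GFP-positive arrays. The genes that the labels name did not follow them. The centred values of Abcg2 were -0.92 and -0.91 on the ABCG2 arrays, -0.17 to 0.02 on mock arrays, 0.84 on the GFP-negative and 1.35 on the GFP-positive array, so it was lowest on the arrays labelled ABCG2 and highest on those labelled EZH2-Mt. Between the ABCG2 and mock arrays it had a difference of -0.86 ± 0.13 (limma standard error, adjusted p = 0.00168; after quantile normalization -0.44, adjusted p = 0.133). Ezh2 was at -0.14 on the GFP-negative and -0.16 on the GFP-positive array, within the mock range of -0.22 to 0.14, and at 0.35 and 0.68 on the ABCG2 arrays, where it rose by 0.54 ± 0.17 (limma adjusted p = 0.0315; after quantile normalization 0.18, adjusted p = 0.552). It is unknown whether the probe sets read the transgenes. In all that follows, ABCG2 and EZH2-Mt therefore stand for the libraries labelled so, and each direction rests on those labels. The titles of the ABCG2 arrays also carry a tag absent from the others, and if that tag marks a batch, batch and ABCG2 cannot be told apart. Array controls moved with the groups too. The median of 40 probe sets for spike-in RNA was -0.89 and -1.40 on the ABCG2 arrays and 0 on each mock array. It was 1.52 on GFP-negative and 3.09 on GFP-positive. For Actb, the centred value of the 3' probe set minus that of the 5' one was 0.40 and 0.42 on the ABCG2 arrays. On mock it was -0.05 to 0.04. As each probe set is centred on its own median, this compares arrays and gives no ratio of levels. Marrow cell markers moved as well. On the ABCG2 arrays, 11 of 11 mature neutrophil, 4 of 4 primary granule, 8 of 8 monocyte and 5 of 5 megakaryocyte markers fell (beside 26.2% of all genes). Of the 5 measured B lineage markers, 3 rose (beside 35.6% of all genes), and Blnk and Ms4a1 did not pass. Only measured markers are counted: the lists held 12 B lineage, 8 T and NK and 12 erythroid genes. The mean of the neutrophil markers was -3.42 and -5.23 on the ABCG2 arrays and -0.17 to 0.23 on mock arrays, and the mean of the B lineage markers was 1.51 and 2.08 against -1.70 to -1.01. T and NK cell markers averaged 1.09 and 0.69 against -2.09 to -0.36 (2 of 3 rose, 1 fell), and erythroid markers -1.12 and -0.91 against -0.65 to 0.43 (1 of 5 rose, 2 fell). The part of these controls and markers in the results on splicing genes, the rises on the ABCG2 arrays included, was not tested, and in bulk marrow fewer cells of a type and less RNA per cell cannot be told apart.

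On the arrays labelled ABCG2, splicing genes were mostly higher than in mock marrow. Of the 91 genes, 45 rose, 7 fell and 39 did not pass the threshold of 0.05 on the adjusted p (limma, Benjamini-Hochberg over 8378 genes, 2 arrays against 3). That was 49.5% of the splicing genes rising, beside 35.6% of all genes, and 7.69% falling, beside 26.2% of all genes. The median difference, ABCG2 mean minus mock mean, was 0.39 log2 for splicing genes and 0.15 for all genes. Both ABCG2 arrays lay above all mock arrays for 59 splicing genes (64.8%, beside 44.2% of all genes) and below them for 11 (12.1%, beside 32.7%). The changes were modest: the median size of a difference was 0.47 log2, beside 0.65 for all genes, 8 splicing genes rose 2-fold or more (8.79%, beside 16.5%) and 5 fell as much (5.49%, beside 14.3%). Differences ranged from -1.70 to 1.46 log2.

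The count of rises depended on the scaling of the arrays. After quantile normalization, which gives all arrays the same distribution, 12 splicing genes rose (13.2%, beside 13.2% of all genes) and 5 fell (5.49%, beside 16.6%), all of them among the 45 and the 7. So the share that rose equalled the background there, while the share that fell stayed under it. The median difference was then 0.19 log2, beside 0.05 for all genes. This normalization was applied to the centred values. It gave the same spread to mock arrays, with an SD of 0.30 to 0.39 before, and ABCG2 arrays, with 1.12 and 1.21 before. Over all genes, rises went from 2983 to 1104 and falls from 2196 to 1391. Centring each array on its median left 39 rises (42.9%, beside 32.7% of all genes) and 7 falls (7.69%, beside 28%).

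**Figure D1:**
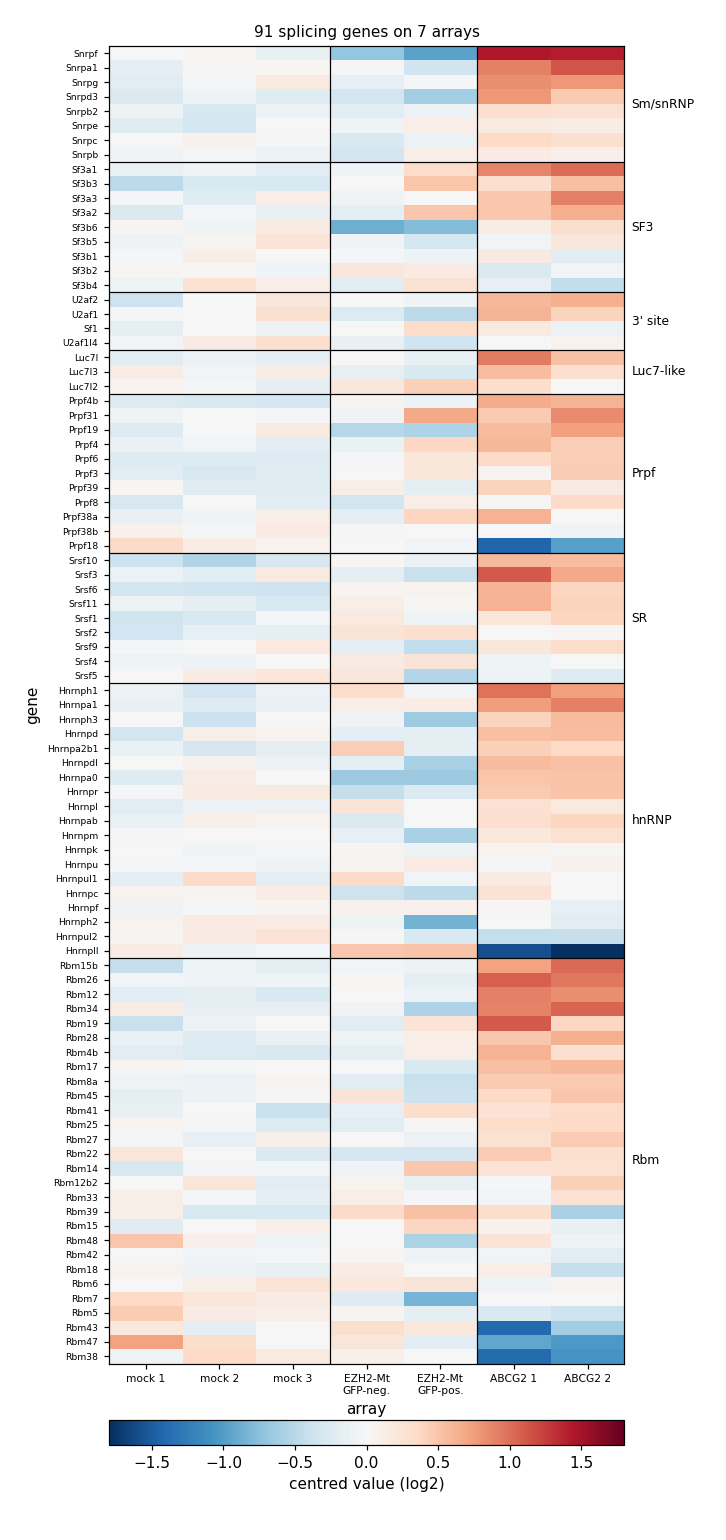
Centred log2 values of the 91 splicing genes (rows, ordered by role and by the ABCG2 difference) on the 7 arrays (columns). Red marks values above the median of the 7 arrays and blue values below it; the 2 ABCG2 arrays are mostly red, with Hnrnpll, Rbm38, Prpf18, Rbm47 and Rbm43 in blue.

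**Figure D2:**
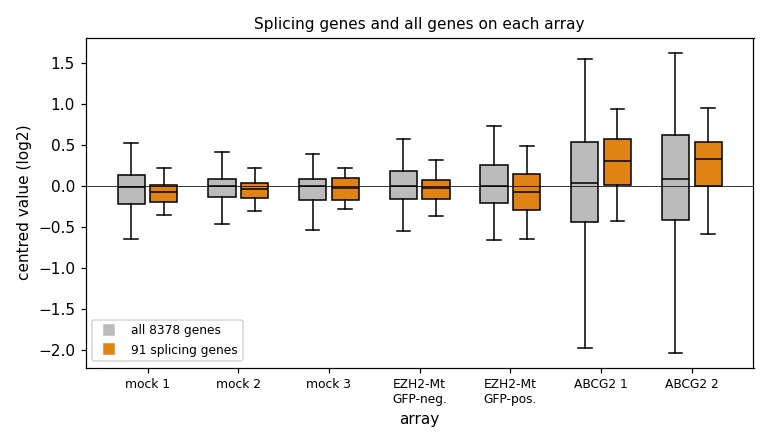
Centred log2 values of all 8378 genes (grey) and the 91 splicing genes (orange) on each array: boxes run from percentile 25 to 75, the line is the median and the whiskers run from percentile 5 to 95. The medians of the splicing genes were 0.31 and 0.33 on the ABCG2 arrays and -0.07 to -0.02 on the other 5.

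Promoter windows are shown for 4 genes: the largest rises among Sm and snRNP, SR and hnRNP genes and the largest fall, each among genes with 1 window in the RefSeq promoter table (build GRCm38.p6). Each window runs from 250 bases before to 50 bases after the start of the gene, 300 bases, written 5' to 3' on the strand of the gene. Capitals mark matches to 5 motifs searched on both strands: the CCAAT box, the E-box CACGTG, the Ets motif CCGGAAG, the TATA box TATAAA, and TCTCGCG. The last is part of a palindrome known from promoters of housekeeping genes, where it matches both strands with overlap. Snrpf lies on the minus strand at chr10:93589609-93589908, Srsf10 on the plus strand at chr4:135855821-135856120, Hnrnpa1 on the plus strand at chr15:103240147-103240446 and Rbm38 on the plus strand at chr2:173021652-173021951.
Snrpf: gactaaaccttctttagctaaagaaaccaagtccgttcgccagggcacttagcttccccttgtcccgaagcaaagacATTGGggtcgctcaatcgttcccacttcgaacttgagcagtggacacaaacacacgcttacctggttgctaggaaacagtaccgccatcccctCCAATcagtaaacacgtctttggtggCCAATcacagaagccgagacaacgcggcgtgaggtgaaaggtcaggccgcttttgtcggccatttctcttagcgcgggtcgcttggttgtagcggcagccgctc
Srsf10: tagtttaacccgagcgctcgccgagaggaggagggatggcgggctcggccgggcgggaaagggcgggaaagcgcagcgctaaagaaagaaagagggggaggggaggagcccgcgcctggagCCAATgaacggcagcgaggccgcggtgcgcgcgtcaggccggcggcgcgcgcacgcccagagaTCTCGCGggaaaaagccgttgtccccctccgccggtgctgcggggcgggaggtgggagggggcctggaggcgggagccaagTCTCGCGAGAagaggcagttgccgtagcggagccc
Hnrnpa1: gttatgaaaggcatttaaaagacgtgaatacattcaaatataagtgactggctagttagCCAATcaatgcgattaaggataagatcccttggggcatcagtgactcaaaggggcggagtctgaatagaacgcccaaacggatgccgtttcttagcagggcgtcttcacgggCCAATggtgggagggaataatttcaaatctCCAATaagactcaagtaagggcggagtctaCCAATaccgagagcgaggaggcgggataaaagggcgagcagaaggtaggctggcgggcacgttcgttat
Rbm38: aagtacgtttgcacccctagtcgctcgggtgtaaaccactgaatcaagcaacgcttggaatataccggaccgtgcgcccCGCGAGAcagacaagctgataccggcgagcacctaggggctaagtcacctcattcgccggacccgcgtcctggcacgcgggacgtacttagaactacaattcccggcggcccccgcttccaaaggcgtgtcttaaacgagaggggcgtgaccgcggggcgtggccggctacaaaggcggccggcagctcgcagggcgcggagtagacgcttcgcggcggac
The capitals are 3 CCAAT boxes in Snrpf, 1 of them on the other strand, 4 CCAAT boxes in Hnrnpa1, and 1 CCAAT box with 3 matches to TCTCGCG, 2 of which overlap, in Srsf10. Rbm38, which fell, held 1 match to TCTCGCG, on the other strand. The table had 99 windows for 79 of the 91 genes. Of these, 47.5% held CCAAT, beside 38.1% of 8877 windows of all measured genes and 37.4% of the 32851 windows in the table. The Ets motif stood in 29.3% of splicing windows, beside 20.3% for measured genes and 8.86% in the table, and TCTCGCG in 14.1%, beside 5.91% and 2.56%. The shares for CACGTG were 10.1%, 10.5% and 7.15%, and for TATAAA 8.08%, 6.73% and 13.6%. The 50 windows of genes that rose held CCAAT in 48%, the Ets motif in 32% and TCTCGCG in 14%. These are matches of letters, with no test. TCTCGCG was put in place of the whole palindrome after the shares of the palindrome had been seen, and a search for an Nrf1 motif, made at the same time, is not reported.

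Among the Sm and other snRNP proteins, 5 of 8 rose (62.5%, beside 35.6% of all genes) and 0 fell (beside 26.2%). Their median difference was 0.63 log2. Both ABCG2 arrays lay above all mock arrays for all 8 (beside 44.2% of all genes). Snrpf encodes SmF, a subunit of the Sm ring that surrounds the spliceosomal snRNAs. Its values were 0.00, 0.02 and -0.14 on mock arrays and 1.43 and 1.42 on the ABCG2 arrays, with -0.70 on GFP-negative and -0.96 on GFP-positive. The ABCG2 arrays stood above mock and the sorted fractions below it. Snrpf had the largest rise of the 91 genes, 2.76-fold (1.46 ± 0.13 log2, limma adjusted p = 0.000168). Snrpa1, the U2 protein A', was at -0.17, 0.02 and 0.04 in mock and at 0.91 and 1.13 on the ABCG2 arrays, a rise of 1.06 ± 0.14 (limma adjusted p = 0.00104). The other risers were Snrpg (0.83), Snrpd3 (0.81) and Snrpb2 (0.45), while Snrpe (0.33), Snrpc (0.30) and Snrpb (0.19) did not pass. With quantile normalization 2 of the 8 rose (beside 13.2% of all genes), and Snrpa1 no longer passed (0.48, limma adjusted p = 0.0909). On probe sets without the suffixes that mark shared or ambiguous targets, 3 rose (beside 34.2% of all genes measured so).

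The SF3 complexes of the U2 snRNP gave 4 rises among 9 genes (44.4%, beside 35.6% of all genes) and 0 falls (beside 26.2%). All 3 SF3a genes rose, and of the 6 SF3b genes only Sf3b3 passed. Sf3a1, a scaffold of SF3a, read -0.12, -0.07 and -0.21 in mock and 0.87 and 1.01 on the ABCG2 arrays, which did not overlap (1.07 ± 0.13, limma adjusted p = 0.000647). Sf3a3 rose by 0.74 and Sf3a2 by 0.71. Sf3b3, a propeller-shaped scaffold of SF3b, was at -0.48, -0.28 and -0.27 in mock and at 0.31 and 0.54 on the ABCG2 arrays (0.77 ± 0.15, limma adjusted p = 0.00421). The difference was -0.40 for Sf3b4, -0.15 for Sf3b2, -0.05 for Sf3b1, 0.01 for Sf3b5 and 0.18 for Sf3b6, none past the threshold. The means of Sf3b1 and Sf3b2 hid probe sets that passed in opposite directions, and 1 of the 2 probe sets of Sf3b4 fell (-0.66). Whether SF3a and SF3b genes differed as groups was not tested. With quantile normalization 2 of the 9 rose (beside 13.2% of all genes): Sf3a1 and Sf3b3 passed, and Sf3a2 did not (0.44, limma adjusted p = 0.0971).

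At the 3' splice site, 1 of 4 genes rose (25%, beside 35.6% of all genes) and 0 fell (beside 26.2%). U2af2, which binds the polypyrimidine tract, rose, and its partner U2af1, which reads the terminal AG, did not pass. U2af2 was spread in mock, at -0.37, -0.01 and 0.20, and stood at 0.60 and 0.64 on the ABCG2 arrays (0.68 ± 0.19, limma adjusted p = 0.0189). That call was lost without ABCG2 array 1 (limma adjusted p = 0.0518), without ABCG2 array 2 (0.0637), without mock array 2 (0.0512) and with quantile normalization (0.455). U2af1 was at -0.02, 0.00 and 0.29 in mock and at 0.62 and 0.40 on the ABCG2 arrays, with no overlap (0.42 ± 0.16, limma adjusted p = 0.0571), and it passed without mock array 3 (0.51, limma adjusted p = 0.0417). Sf1, the branch point binding protein, overlapped between the groups (0.12), as did U2af1l4 (-0.10). Of the Luc7-like proteins, which work with the U1 snRNP, 1 of 3 rose (33.3%, beside 35.6% of all genes) and 0 fell. Luc7l rose by 0.89 ± 0.16 (limma adjusted p = 0.00327), while Luc7l3 (0.36) and Luc7l2 (0.22) did not pass.

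Of the 11 Prpf genes, 6 rose (54.5%, beside 35.6% of all genes) and 1 fell (9.09%, beside 26.2%), with a median of 0.49 log2. Prpf4b, a kinase that phosphorylates tri-snRNP proteins, had mock values of -0.24, -0.27 and -0.32 and ABCG2 values of 0.67 and 0.61, with no overlap (0.91 ± 0.12, limma adjusted p = 0.000991). Prpf31, Prpf19, Prpf4, Prpf6 and Prpf3 rose by 0.69, 0.68, 0.64, 0.63 and 0.49. Prpf4 and Prpf3 are partners on U4/U6, Prpf31 and Prpf6 hold the tri-snRNP together, and Prpf19 is the ubiquitin ligase of the spliceosome. Prpf18, which acts in the second step of splicing, moved the other way: 0.34, 0.13 and 0.06 in mock, -1.42 and -0.97 on the ABCG2 arrays, and 0.00 and -0.05 in the GFP-negative and GFP-positive fractions. It fell by 1.37 ± 0.18 (limma adjusted p = 0.000911). With quantile normalization 1 of the 11 rose, Prpf4b (beside 13.2% of all genes), and Prpf18 still fell.

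SR proteins rose in 5 of 9 cases (55.6%, beside 35.6% of all genes), with 0 falls (beside 26.2%) and a median of 0.52 log2. Srsf10, an SR protein whose activity depends on its phosphorylation, was low in mock at -0.38, -0.54 and -0.29 and stood at 0.58 and 0.56 on the ABCG2 arrays (0.97 ± 0.14, limma adjusted p = 0.00119). All of its 4 probe sets rose, by 0.87 to 1.06. Srsf3, the smallest classical SR protein, read -0.10, -0.19 and 0.17 in mock and 1.10 and 0.69 on the ABCG2 arrays, with no overlap (0.94 ± 0.19, limma adjusted p = 0.00491). Srsf6, Srsf11 and Srsf1 rose by 0.85, 0.69 and 0.52. Srsf2 (0.23), Srsf9 (0.22), Srsf4 (0.02) and Srsf5 (-0.28) did not pass. With quantile normalization 2 of the 9 rose (beside 13.2% of all genes), and Srsf3 lost its call (0.45, limma adjusted p = 0.227).

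The hnRNP proteins held both risers and the deepest fall. Of 19, 9 rose (47.4%, beside 35.6% of all genes) and 2 fell (10.5%, beside 26.2%), with a median of 0.33 log2. Hnrnph1, which binds runs of G, was at -0.10, -0.34 and -0.10 in mock and at 0.98 and 0.73 on the ABCG2 arrays (1.04 ± 0.15, limma adjusted p = 0.00141). Hnrnpa1, the archetypal exon silencer, was at -0.14, -0.23 and -0.12 in mock and at 0.75 and 0.90 on the ABCG2 arrays (0.99 ± 0.13, limma adjusted p = 0.000908). For both genes the groups stood well apart. Hnrnph3, Hnrnpd, Hnrnpa2b1, Hnrnpdl, Hnrnpa0, Hnrnpr and Hnrnpl rose by 0.36 to 0.61.

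Hnrnpll, a regulator of CD45 splicing in lymphocytes, was at 0.15, -0.09 and -0.02 in mock and at -1.58 and -1.79 on the ABCG2 arrays, and at 0.49 and 0.51 in the GFP-negative and GFP-positive fractions. Both of its probe sets fell, and the gene fell by 1.70 ± 0.14 (3.26-fold, limma adjusted p = 0.000151). Hnrnpul2, a relative of the nuclear matrix protein Hnrnpu, fell by 0.57 ± 0.13 (limma adjusted p = 0.00889), from 0.05, 0.15 and 0.25 in mock to -0.43 and -0.41. The other 8 hnRNP genes did not pass, among them Hnrnpk (0.08), Hnrnpu (0.07) and Hnrnpc (0.04). With quantile normalization 1 hnRNP gene rose, Hnrnpa1 (beside 13.2% of all genes), and 1 fell, Hnrnpll (beside 16.6%). Hnrnph1 (0.72, limma adjusted p = 0.0634) and Hnrnpul2 (-0.62, limma adjusted p = 0.0504) missed the threshold there. Fewer hnRNP genes rose without ABCG2 array 1 or without ABCG2 array 2, and their share was then under that of all genes. Each of these fits had 1 ABCG2 array.

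The Rbm genes were the largest class. Of 28, 14 rose (50%, beside 35.6% of all genes) and 4 fell (14.3%, beside 26.2%), with a median of 0.39 log2. Rbm15b, which helps to place the methyltransferase that marks adenosines in mRNA, was at -0.42, -0.08 and -0.16 in mock and at 0.73 and 1.02 on the ABCG2 arrays (1.09 ± 0.17, limma adjusted p = 0.00167). Rbm26, a partner of the nuclear exosome machinery, was at -0.05, -0.08 and -0.08 in mock and at 1.08 and 0.95 on the ABCG2 arrays (1.08 ± 0.12, limma adjusted p = 0.000525). Rbm12 stood at -0.19, -0.17 and -0.27 in mock and at 0.90 and 0.83 on the ABCG2 arrays (1.08 ± 0.12, limma adjusted p = 0.000531). In none of these 3 genes, named for their large rises, did the groups overlap (both ABCG2 arrays lay above mock for 44.2% of all genes). Rbm34 rose by 1.02 ± 0.15 (limma adjusted p = 0.00145), from 0.14, -0.15 and -0.15 to 0.89 and 1.04. Rbm45, which passed on its 1 probe set (0.51, limma adjusted p = 0.0146), lost the call without ABCG2 array 2 (0.0634) and without mock array 2 (0.0511). Rbm14, a coactivator found in paraspeckles, was at the edge (0.38, limma adjusted p = 0.048) and lost it without any 1 of the 5 arrays (0.0755 to 0.127).

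Among the Rbm genes, 4 fell. Rbm38 drives splicing switches late in red cell formation and is a target of p53. It was at -0.07, 0.36 and 0.17 in mock, at -1.38 and -1.06 on the ABCG2 arrays, and at 0.09 and 0.00 in the GFP-negative and GFP-positive fractions, a fall by 1.38 ± 0.18 (limma adjusted p = 0.000888). Rbm47, a cofactor of the APOBEC1 RNA editing enzyme, was at 0.73, 0.32 and 0.00 in mock and at -0.94 and -1.04 on the ABCG2 arrays, and it fell by 1.34 ± 0.22 (limma adjusted p = 0.00231). Its mock values spread the most of the fallers, yet did not reach the ABCG2 arrays. Rbm43 was at 0.19, -0.18 and 0.00 in mock and at -1.40 and -0.62 on the ABCG2 arrays, and fell by 1.01 ± 0.25 (limma adjusted p = 0.012). That call was lost with quantile normalization (-0.56, limma adjusted p = 0.139). Rbm5, a regulator of the splicing of apoptosis genes, fell by 0.57 ± 0.15 (limma adjusted p = 0.0175), a call lost without ABCG2 array 2 (0.0676). With quantile normalization 3 Rbm genes rose, Rbm12, Rbm15b and Rbm26 (beside 13.2% of all genes). Leaving out mock array 2 left 9 of 28 Rbm genes rising (beside 29.4% of all genes). Fewer also rose without ABCG2 array 1 or ABCG2 array 2, and each of these fits had 1 ABCG2 array.

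**Figure D3:**
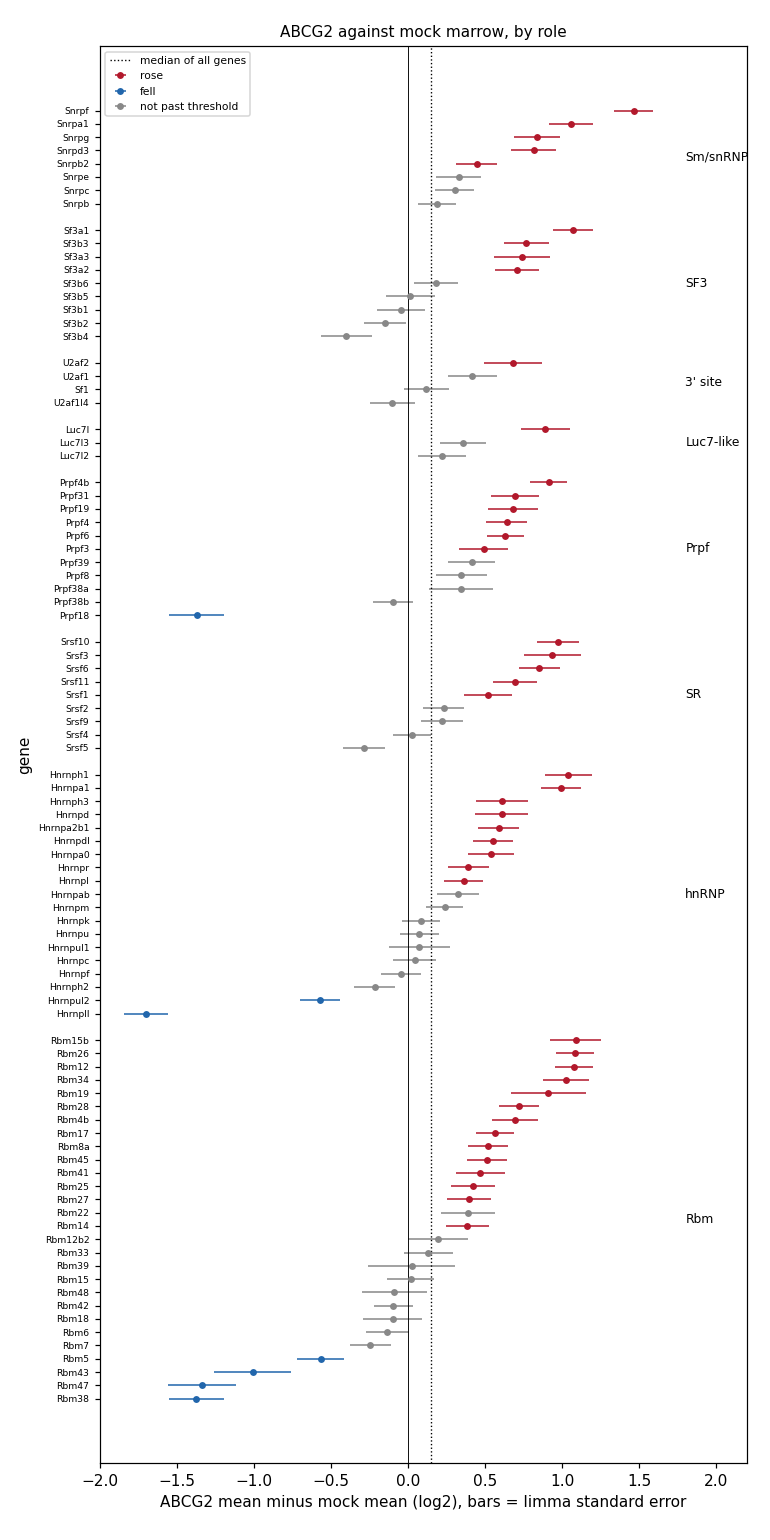
Difference of the ABCG2 mean from the mock mean (log2, points) with limma's standard error (bars) for the 91 splicing genes, grouped by role. Red genes rose and blue genes fell past the threshold, grey genes did not pass, and the dotted line at 0.15 is the median of all genes. The 45 rises made up 25% to 62.5% of each class, beside 35.6% of all genes. The 7 falls sit among the Prpf, hnRNP and Rbm genes.

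Of the 8 splicing genes listed as mutated in human MDS, 7 were measured, and Zrsr2 was not analysed here. U2af2 was the 1 that rose (14.3%, beside 35.6% of all genes). The differences of the other 6 did not pass, and their 95% intervals (limma) bound what these arrays could show: 0.04 to 0.80 log2 for U2af1, -0.05 to 0.74 for Prpf8, -0.09 to 0.55 for Srsf2, -0.15 to 0.59 for Luc7l2, -0.23 to 0.47 for Sf1 and -0.42 to 0.32 for Sf3b1. Sf3b1, the branch point clamp of SF3b, was at -0.02, 0.10 and 0.01 in mock, at 0.16 and -0.20 on the ABCG2 arrays, and at -0.02 and -0.09 in the GFP-negative and GFP-positive fractions. Its ABCG2 arrays lay on either side of mock, and without ABCG2 array 2 the difference turned to 0.13. Srsf2, which binds exonic enhancers, was at -0.34, -0.15 and -0.17 in mock, at about 0.00 and 0.02 on the ABCG2 arrays, and at 0.23 and 0.30 in the fractions, so that all 4 other arrays lay above mock. On probe sets without the suffixes for shared targets, Srsf2 passed (0.56, limma adjusted p = 0.0258). That value rests on 1 of its 4 probe sets, and the others did not pass (0.20, 0.35 and -0.19). Prpf8, the core of the catalytic centre, was at -0.29, 0.00 and -0.21 in mock and at 0.01 and 0.34 on the ABCG2 arrays.

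For some genes the mean hid probe sets that moved against each other. Of the 58 genes with several probe sets, 33 had all of them on the same side of 0 and 6 had at least 1 that rose and 1 that fell (limma, Benjamini-Hochberg over 16255 probe sets). How often this happens among all genes with several probe sets was not counted, so these counts describe no trait particular to splicing genes. Over the 232 probe sets, 102 rose (44.0%, beside 31.5% of all probe sets) and 20 fell (8.62%, beside 25.3%). The widest was Hnrnpab, whose 6 probe sets ran from -1.26 to 1.54, with 3 rising and 1 falling around a mean of 0.33. The probe set at -1.26 was at 0.58, 0.79 and 0.48 in mock and at -0.66 and -0.62 on the ABCG2 arrays, while the one at 1.54 was at -0.43, 0.16 and -0.14 in mock and at 1.40 and 1.41. Neither overlapped between the groups, and they pointed in opposite directions. Rbm5 had 4 probe sets that fell, down to -1.28, and 1 that rose (0.53). Sf3b1 had 1 of each (-0.74 and 0.61), as did Prpf38b (-1.06 and 0.78), Sf3b2 had 2 falls and 1 rise (-1.03 to 0.56) and Hnrnpr 3 rises and 1 fall (-0.61 to 0.87). The gene-level call of Hnrnpr (0.39, limma adjusted p = 0.0389) turned to -0.04 with quantile normalization, was lost without any 1 of the 5 arrays (0.0692 to 0.113), and lies on probe sets that disagree. Which transcript each probe set reads was not analysed here. For the Actb control, the centred value of the 3' probe set minus that of the 5' one was 0.40 and 0.42 on the ABCG2 arrays. It was -0.05 to 0.04 on mock, 0.14 on GFP-negative and 0.31 on GFP-positive arrays. The same quantity for Gapdh was -0.08 and -0.11 on the ABCG2 arrays, -0.08 to 0.10 on mock, 0.09 on GFP-negative and 0.35 on GFP-positive arrays. The part of RNA quality in the disagreement was not tested.

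**Figure D4:**
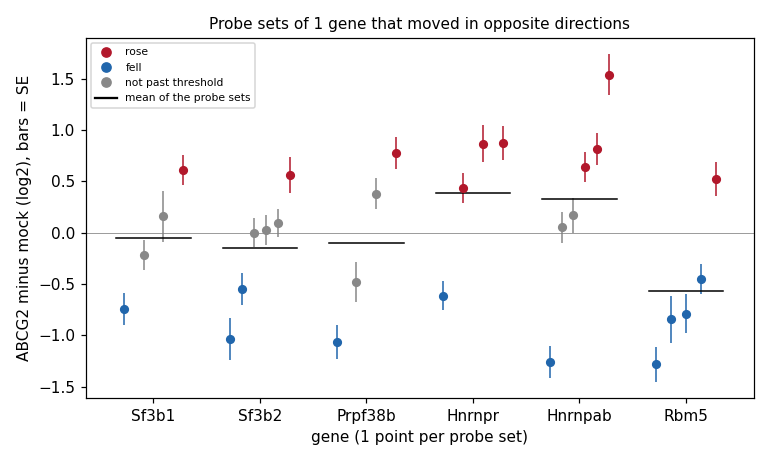
ABCG2 minus mock difference (log2, points, bars are limma's standard error) of each probe set of the 6 splicing genes with calls in both directions. Red probe sets rose, blue ones fell, grey ones did not pass, and the black line is the mean of the gene; Hnrnpab spans the widest range, from -1.26 to 1.54.

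Genes listed as other spliceosome genes, outside these families, were also mostly higher on the ABCG2 arrays. Of 152 such genes in 8 lists, 72 rose (47.4%, beside 35.6% of all genes) and 19 fell (12.5%, beside 26.2%). Their median difference was 0.35 log2, beside 0.15 for all genes. With quantile normalization 13 rose (8.55%, beside 13.2% of all genes) and 8 fell (5.26%, beside 16.6%). Without mock array 2 the falls numbered 12 (beside 21.8% of all genes). Falls were also fewer without ABCG2 array 2, a fit with 1 ABCG2 array. The assembly factors of the snRNP core stood highest, with 10 of 15 rising (66.7%), 1 falling (6.67%) and a median of 0.80. They include Wdr77, a partner of the methylase of Sm proteins, which rose by 1.18 ± 0.14 (limma adjusted p = 0.000681), and Coil, the marker of Cajal bodies, which rose by 1.10 ± 0.14 (limma adjusted p = 0.000899). Lsm proteins, of which several form the ring on U6, rose in 7 of 11 cases (63.6%) and fell in 1 (9.09%). Lsm14b was at 1.75 ± 0.16 and Lsm2 at 1.31 ± 0.21 (limma adjusted p = 0.000224 and 0.00207). The Lsm genes were listed by family name, and some of them, such as Lsm14b, have roles other than splicing. Of 28 other snRNP proteins 13 rose and 3 fell (46.4% and 10.7%, beside 35.6% and 26.2% of all genes). They were led by Snrnp70, the U1 70K protein, at 1.19 ± 0.14 and Tssc4, a U5 assembly factor, at 1.12 ± 0.15.

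The helicases gave 7 rises and 1 fall among 17 (41.2% and 5.88%, beside 35.6% and 26.2% of all genes). Dhx9 rose by 0.99 ± 0.14 and Ddx42 by 0.88 ± 0.13. The exon junction complex and SR-related coactivators gave 10 rises and 1 fall among 20 (50% and 5%). Sugp2 was at 1.49 ± 0.18 and Rnps1, a splicing activator bound to that complex, at 0.96 ± 0.13. The Prp19 complex and second step factors gave 8 rises and 3 falls among 23, with Cwc22 at 1.14 ± 0.13 and Smu1 at -1.08 ± 0.14. The kinases and importers of SR proteins were divided, with 4 rises and 4 falls among 9 (44.4% each) and a median of -0.46. Srpk1, a cytoplasmic kinase of SR proteins, rose by 0.97 ± 0.16, and its relative Srpk2 fell by 0.74 ± 0.14 (limma adjusted p = 0.00212 and 0.00448). Srpk1 was at -0.34, -0.03 and -0.01 in mock and at 0.77 and 0.91 on the ABCG2 arrays, whereas Srpk2 was at 0.25, 0.15 and -0.04 in mock and at -0.58 and -0.66. Other regulators of alternative splicing gave 13 rises and 5 falls among 29 (44.8% and 17.2%). The 2 named from that list both fell: Ptbp3, a polypyrimidine tract binding protein of blood cells, by 2.01 ± 0.17, and Mbnl3, a muscleblind protein, by 1.49 ± 0.13 (limma adjusted p = 0.000129 and 0.000181). Quantile normalization ended the calls of Ddx42, Dhx9, Cwc22, Lsm2, Wdr77, Coil, Srpk1 and Srpk2, with adjusted p from 0.0569 to 0.173 (limma), and the other 8 named here passed.

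The sorted EZH2-Mt fractions had 1 array each, so their differences have no replicate check and no test. Of the 91 splicing genes, 0 differed 2-fold between GFP-positive and GFP-negative, beside 3.1% of all genes (1.77% higher and 1.34% lower in GFP-positive), and 0 did so between any pair of mock arrays, beside 0.358% to 1.85% of all genes. After quantile normalization the count between the fractions was 3 (3.3%, beside 9.3% of all genes), with natural logs 3 (3.3%, beside 9.38%), and on probe sets without suffixes 1 of 80 (beside 3.38%). At 1.5-fold, 7 splicing genes differed (7.69%, beside 14.5% of all genes), 2 higher in GFP-positive (2.2%, beside 7.88%) and 5 lower (5.49%, beside 6.65%). GFP-positive was the lower fraction for 54 splicing genes and the higher for 37, and the median difference was -0.06 log2, beside 0.01 for all genes.

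The higher 2 at 1.5-fold were Prpf31 (-0.08 in GFP-negative and 0.68 in GFP-positive, a difference of 0.76) and Sf3a2 (-0.16 and 0.50, a difference of 0.66). Next came Rbm14 (0.56), Prpf38a (0.55), which enters the spliceosome before its activation, and Sf3b3 (0.50). Prpf31 was at -0.08 to 0.00 in mock, so GFP-positive stood apart and GFP-negative lay with mock. The lower 5 were Hnrnph2 (-0.77), Srsf5 (-0.74), Hnrnpa2b1 (-0.61), Rbm7 (-0.60) and Rbm45 (-0.60). Srsf5 was at 0.00, 0.15 and 0.21 in mock, 0.21 in GFP-negative and -0.53 in GFP-positive, so again GFP-positive alone left the mock range. Hnrnpa2b1, a core packaging protein of pre-mRNA, was at -0.12, -0.31 and -0.18 in mock, 0.44 in GFP-negative and -0.16 in GFP-positive, so there the GFP-negative array was the one outside. Rbm45 stood on both sides of mock, at 0.23 in GFP-negative and -0.38 in GFP-positive, against -0.17 to 0.00.

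Marker means differed between the fractions too. They were 0.33 in GFP-negative and 0.74 in GFP-positive for mature neutrophils, 0.20 and 1.09 for primary granules, 0.38 and 1.30 for erythroid, 0.19 and 0.79 for B lineage and 1.22 and 0.10 for T and NK markers. Monocyte markers were at -0.14 and 0.07, and megakaryocyte markers at 0.18 and -0.30. Their part in the splicing genes was not tested.

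The fractions were sorted and mock marrow was whole, so sorting, EZH2-Mt and the MDS-like state cannot be told apart against mock. The mean of the 3 mock arrays is shared with the ABCG2 comparison. Against it, 1 splicing gene was 2-fold lower in GFP-positive marrow (1.1%, beside 3.03% of all genes) and 0 were 2-fold higher (beside 4.33%). The 1 was Rbm7, a subunit of the nuclear exosome targeting complex, at 0.36, 0.22 and 0.14 in mock, -0.23 in GFP-negative and -0.84 in GFP-positive, a difference of -1.08. In GFP-negative marrow, 0 splicing genes were 2-fold lower (beside 2.12%) and 0 higher (beside 2.46%). Both fractions lay below all mock arrays for 21 splicing genes (23.1%, beside 20.6% of all genes) and above them for 21 (23.1%, beside 27.4%), so neither direction stood far from the background. The counts of 2-fold differences from mock depended on the setting. In GFP-positive, in either direction and outside the mock range, the 1 gene (1.1%, beside 7.33% of all genes) became 8 after quantile normalization (8.79%, beside 17.9%), 7 with natural logs (7.69%, beside 18.8%) and 5 of 80 on probe sets without suffixes (6.25%, beside 8.47%). In GFP-negative the count of 0 (beside 4.55%) became 3 (3.3%, beside 16.3%), 1 (1.1%, beside 12%) and 0 of 80 (beside 4.87%) under the same settings.

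The genes furthest below mock in both fractions were Sf3b6, the SF3b subunit at the branch adenosine (-0.88 in GFP-negative and -0.78 in GFP-positive, against -0.08 to 0.16 in mock), and Snrpf. Sf3b6 did not pass on the ABCG2 arrays (0.18). Sf3b3 was above mock in both, by 0.34 in GFP-negative and 0.85 in GFP-positive. Over all genes, both fractions lay above mock for 27.4% and below for 20.6%. SR genes had both fractions above mock in 5 of 9 cases and below in 1. Sm and snRNP genes had both above in 0 of 8 and below in 3, and hnRNP genes above in 6 of 19 and below in 7. Of the 45 genes that rose on the ABCG2 arrays, 13 had both fractions above mock and 7 below (beside the same 27.4% and 20.6%). Of the 7 that fell, 1 had both above and 3 below. Snrpf and Hnrnpll, the largest rise and the largest fall on the ABCG2 arrays, both lay on the other side of mock in the fractions. The difference from the mock mean was -0.66 (GFP-negative) and -0.92 (GFP-positive) log2 for Snrpf, and 0.47 and 0.49 for Hnrnpll.

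**Figure D5:**
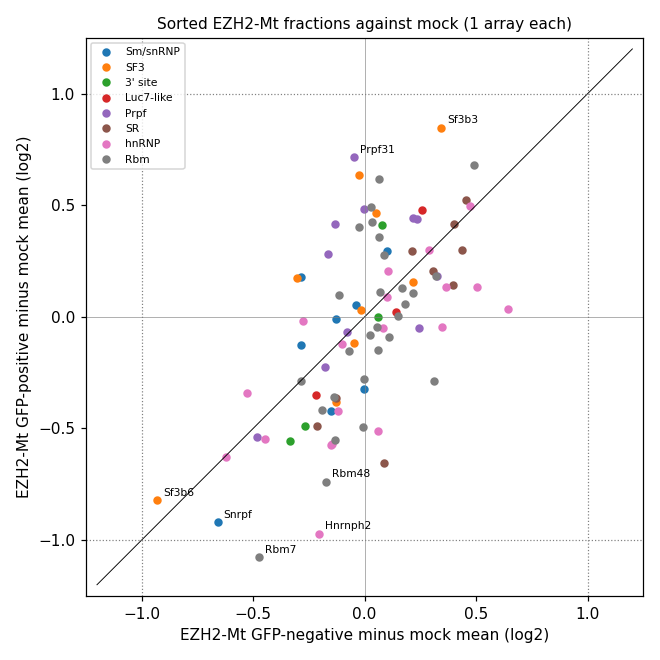
Difference from the mock mean (log2) of each of the 91 splicing genes in the GFP-negative (x axis) and GFP-positive (y axis) EZH2-Mt fraction, 1 array each, coloured by role. The diagonal marks equal values and the dotted lines 2-fold; on this scale Rbm7 at -1.08 is the 1 gene past 2-fold, in GFP-positive (8 genes after quantile normalization), and Sf3b6 and Snrpf lie low in both.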

How the data were processed

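Per the labels' protocols, about 50 micrograms of biotinylated cRNA were made from 5 micrograms of marrow RNA for each Affymetrix Mouse430_2 array. The authors deposited 1 value per probe set and array on a log scale whose base is not stated. Normalized signals, per the file headers, had been filtered for a raw signal of at least 3 and for Present or Marginal flags on every array. The submitters' processing notes name MAS5 without a version, and scaling steps are not given in the sources used here. Each probe set had a median of 0 over the 7 arrays. The deposited values were taken as log2 values and used as they stand (sample files and value table differed by at most 0). Under that filter, genes not detected on some array are not analysed here.

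The 54 control probe sets were set apart. Of the other 16255, the platform annotation gave 1 symbol for 14229, several for 483 and none for 1543, and gene IDs of 14203 matched the RefSeq gene table of GRCm38.p6, which changed 0 symbols. The mean of a gene's probe sets gave 8378 genes. ABCG2 and mock arrays were compared with limma 3.58.1 under R 4.3.3 (two-sided tests from lmFit and eBayes, Benjamini-Hochberg over all genes, threshold 0.05), after the script had been tested on simulated data. Values after ± are limma standard errors, and "rose" and "fell" refer to calls past the threshold. The number of arrays limits the precision. For the sorted fractions, differences of 2-fold or more were counted, with no test.

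Members, gene lists, tests and the rule for named genes were chosen with earlier results of these data known. Named were the 12 largest rises and falls, the MDS genes, the 5 largest differences each way between the fractions, genes with opposed probe sets and the 2 lowest p-values of each list of other spliceosome genes. Other splicing genes given by name (such as Sf3b6, Luc7l or Srsf6) were chosen after their values were seen. Replicate 1 minus replicate 2 correlated between mock and ABCG2 at r = 0.015 over 8378 genes, and only numbers 1 and 2 are shared, so the numbers were not taken as pairs. Alternatives were quantile normalization, centring of arrays, array weights, a robust variance prior, the median of probe sets, probe sets without the suffixes _s, _x or _a, the replicate number as a block, and each array left out.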

Additional observations from a re-analysis of the deposited data

Results flagged for a closer look

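The probe sets for bacterial and phage spike-in RNA stood apart on the sorted arrays. Their median over 40 probe sets was 0 on each mock array, 1.52 on the GFP-negative array and 3.09 on the GFP-positive array. It was -0.89 and -1.40 on the ABCG2 arrays. The part of this in the results on the ABCG2 arrays and the sorted fractions was not tested.

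A further 19 probe sets carry several gene symbols, one of them a splicing gene, and were left out of every gene value. Of these, 10 rose (31.5% of all probe sets did) and 0 fell (25.3% of all did) on the ABCG2 arrays (limma, adjusted over 16255 probe sets), with a median difference of 0.62 log2 and a range of -0.46 to 1.11. No gene is named from them.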

How the results depend on the processing

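Of the 45 rising splicing genes, 12 rose after quantile normalization and 5 of the 7 falls remained, and the median difference of 0.39 became 0.19. The median moved to 0.32 when arrays were centred on their medians (0.09 over all genes) and to 0.43 on probe sets without shared-target suffixes. Leaving out 1 array gave 32 to 39 rises (35.2% to 42.9%, beside 29.3% to 33.1% of all genes), 6 to 7 falls (6.59% to 7.69%, beside 21.8% to 24.3%) and medians of 0.36 to 0.41. With the replicate number as a block there were 35 rises (38.5%, beside 30.7% of all genes) and 7 falls (7.69%, beside 23.7%), and the median was 0.39. The block, which the pairing check does not bear out, ended the calls of Rbm14 (adjusted p = 0.0869, limma) and Hnrnpr (0.083) and no other call of a gene named by the rule. Splicing genes 2-fold apart between GFP-positive and GFP-negative numbered 0 (beside 3.1% of all genes), and 7 at 1.5-fold (beside 14.5%), 3 if the logs are natural (beside 9.38%), 3 after quantile normalization (beside 9.3%) and 1 on probe sets without suffixes (beside 3.38%). For GFP-positive against mock the count of 1 (beside 7.33%) became 12, 7, 8 and 5 under the same settings (beside 25.6%, 18.8%, 17.9% and 8.47% of all genes), and stayed 1 without any 1 mock array. For GFP-negative against mock 0 (beside 4.55%) became 4, 1 and 3 (beside 17.3%, 12% and 16.3%), and stayed 0 on probe sets without suffixes (beside 4.87%) and without any 1 mock array. The sign turned for Sf3b1 without ABCG2 replicate 2 (range over arrays left out -0.23 to 0.13), Sf1 without ABCG2 replicate 1 (-0.02 to 0.25), Hnrnpr after quantile normalization (-0.043) and Prpf38b with the median of probe sets (0.016). The cause was not tested. Over the alternatives, values of the 40 splicing genes named by the rule kept their direction and side of the threshold 432 times, lost the call 34 times, gained it 3 times and turned 4 times. Prpf38a gained it without ABCG2 replicate 2 (0.65, limma adjusted p = 0.0221). Of the 16 other spliceosome genes, 179 values kept their call and 8, all after quantile normalization, lost it. With 2 ABCG2 arrays and 1 array per sorted fraction, small differences could not be resolved.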
